A study of Homo sapiens with 2 samples.

Results

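The prostanoid and lipoxygenase genes are 10 genes that release, oxidise, convert, sense or break down arachidonic acid and its products. They were chosen by gene name, as every probe set that the platform annotation assigns to PTGS1, PTGS2, PTGES, PTGES2, PTGES3, PLA2G4A, HPGD, ALOX5, PTGER2 or PTGER4, a rule that reads names and no signal; the list itself was drawn up with earlier results of these data known. These are 10 of 19775 named genes and 22 of 54675 probe sets, and each of the 22 was assigned to a single gene. ALOX5 is the only lipoxygenase among them.

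Signals were measured on 2 Affymetrix arrays. Both arrays held RNA of Calu-3, an established cancer cell line from a human lung adenocarcinoma, whose tight monolayers serve as a model of the airway gland and surface epithelium. One culture was stretched cyclically on a flexible, collagen I-coated plate for 18 h, as a sine wave between 0.7% and 20% stretch with 2 s on and 2 s off, and the other, labelled non-stretch at the same 18 h, is called unstretched here. The protocol put both in medium with 10% serum and gave a density of about 80%, whereas the design text calls the cells confluent. No genetic change or drug is named for either culture. With 1 array per condition there is no replicate, no SD and no test between the conditions, so each difference compares these 2 arrays and the number of arrays limits its precision.

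Arachidonic acid is cut from membrane phospholipids by phospholipase A2 enzymes. Cyclooxygenases turn it into prostaglandin H2, which terminal synthases convert to prostaglandin E2 and other prostanoids, and prostaglandin E2 acts through the EP receptors on the cell surface until it is taken up and inactivated by 15-hydroxyprostaglandin dehydrogenase. Lipoxygenases act on the same fatty acid and open the leukotriene branch. In airway epithelium prostaglandin E2 is known for restraining inflammation and relaxing neighbouring smooth muscle, and leukotrienes for constricting it.

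In the stretched array the induced cyclooxygenase PTGS2 was 2.65-fold lower and the 5-lipoxygenase gene ALOX5 2.24-fold lower than in the unstretched array, each by over 2-fold in every measured probe set. PTGER4, which encodes the EP4 receptor for prostaglandin E2, was 2.21-fold higher by 1 probe set. HPGD, whose enzyme inactivates prostaglandin E2, was higher in all 4 of its probe sets, by 1.73-fold in the brightest. The constitutive cyclooxygenase PTGS1, the 3 prostaglandin E synthases, PLA2G4A and PTGER2 differed by less than 2-fold.

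Signals are probe set intensities on a linear scale, and differences are log2 stretched minus log2 unstretched. Values below an array's median (28.7 unstretched, 28.4 stretched, the floor) were set to that median, and a gene was called measured if its brightest probe set exceeded the floor in at least 1 array. All 10 genes were measured, 9 of them in both arrays, and 19 of the 22 probe sets were. Of the 10, 1 gene was at least 2-fold higher in the stretched array, 2 were at least 2-fold lower and 7 differed by less. Over all 13453 measured genes, 7.78% were higher by that factor and 7.49% lower, 15.3% together. The median log2 difference of the 10 genes was 0.19, against 0.01 over all measured genes, and their values ran from -1.40 to 1.14. The spread of a single probe set, taken from the 2 brightest probe sets of each of 5818 genes, was an SD of 0.36 on the log2 scale. It was 0.49 where the dimmer probe set of the pair averaged under 100 signal units and 0.27 between 300 and 1000. This SD covers probe noise and isoforms and leaves out variation between cultures.

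The scale of the arrays was checked with controls. The 18 hybridisation spike-in probe sets differed by a median of -0.11 on the log2 scale, and the 3′ to 5′ signal ratios of GAPDH were 0.878 and 0.862 and those of ACTB 1.04 and 1.01 in the unstretched and stretched arrays. Epithelial markers matched the labelled cell type: all 7 (EPCAM, CDH1, KRT7, KRT8, KRT18, KRT19 and CLDN4) were measured, and none differed 2-fold. At the floor in both arrays were 5 of 6 endothelial, 4 of 7 fibroblast, 3 of 4 mast cell and 2 of 9 leukocyte markers, the last being PTPRC and FCER1G.

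**Figure D1:**
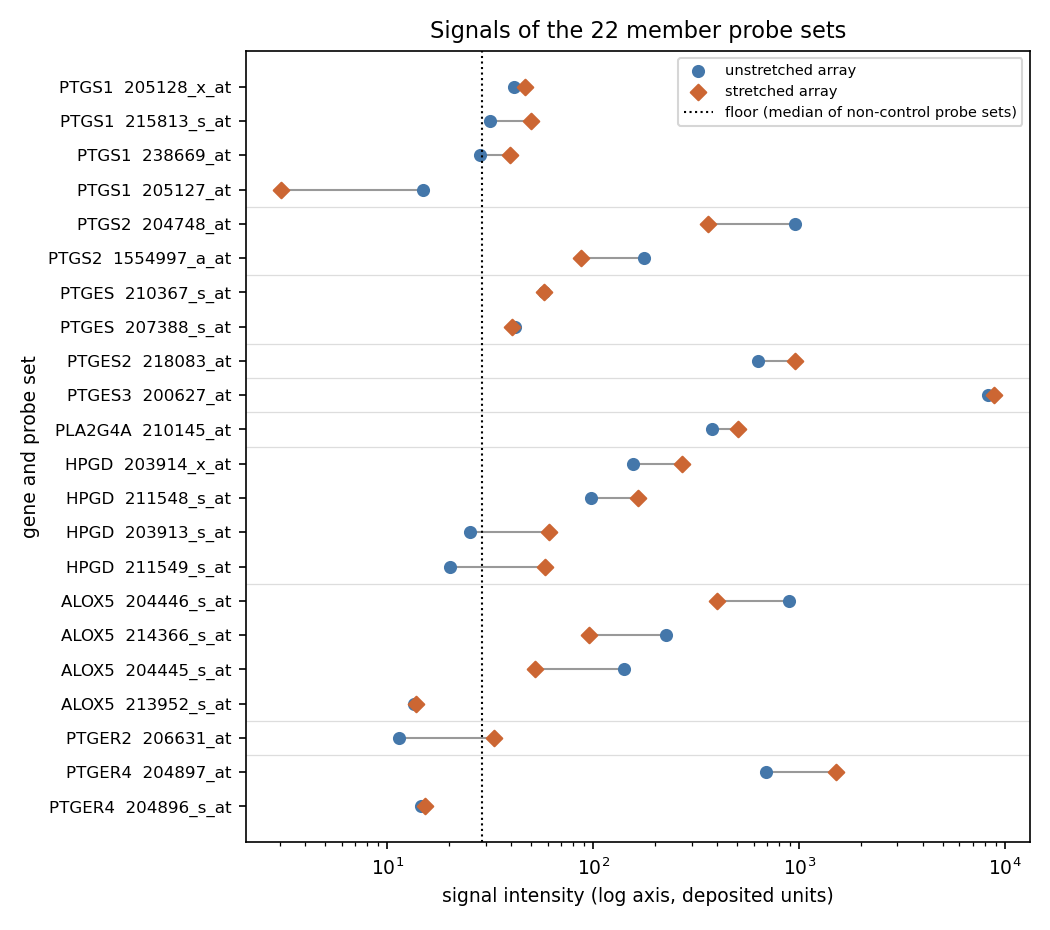
Signal of each of the 22 probe sets of the 10 genes in the unstretched (circles) and stretched (diamonds) array on a log axis; the dotted line is the floor of the unstretched array, 28.7. The PTGS2 probe sets and the 3 bright ALOX5 probe sets lie lower in the stretched array, and all 4 HPGD probe sets and the bright PTGER4 probe set lie higher. The dimmer HPGD probe sets passed the floor only under stretch.

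Release of arachidonic acid begins with PLA2G4A, the calcium-dependent cytosolic phospholipase A2 that prefers arachidonate-containing lipids. Its 1 probe set read 377.7 in the unstretched and 505.5 in the stretched array, a log2 difference of 0.42 (1.34-fold), little more than the SD of a single probe set. In RefSeq's gene order PLA2G4A is a close neighbour of PTGS2, with 1 entry, PACERR, between them. The neighbours differed in opposite directions on these arrays, with PTGS2 at -1.40.

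Among 12 other measured genes of arachidonate release and re-esterification, none differed 2-fold in its brightest probe set, and the median was 0.08. PLA2G6, named after its values were seen, went from 78.3 to 55.7 (-0.49) in that probe set. Another of its probe sets went from 102.2 to 30.9 (-1.73). A dim probe set of S100A10 went from 31.8 to 63.8, 2.00-fold higher. PLA2G7, which degrades platelet-activating factor, went from 40.8 to 80.4, a log2 difference of 0.98, and PLA2G15, the lysosomal phospholipase A2, from 682.8 to 417.2, a difference of -0.71. Of the other cytosolic phospholipases of the PLA2G4 group on the list, PLA2G4C, PLA2G4D and PLA2G4F were at the floor in both arrays. ANXA1 and S100A10, a pair known to restrain cytosolic phospholipase A2, were bright and differed by 0.17 and 0.32. These genes at the floor and this pair were named after their values were seen.

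The cyclooxygenases PTGS1 and PTGS2 catalyse the same step and are known for constitutive and induced expression respectively. PTGS2 read 954.0 in the unstretched and 360.5 in the stretched array in its brightest probe set, 2.65-fold lower under stretch (-1.40 on the log2 scale). Its other probe set went from 176.9 to 86.7, 2.04-fold lower (-1.03). Both probe sets were therefore lower in the stretched array by over 2-fold, and the brighter difference was 3.89 times the SD of a single probe set. Among all measured genes, 529, PTGS2 included, were as low or lower, which places it at the 3.93rd percentile.

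PTGS1 was dim. Its brightest probe set read 41.3 and 46.8, a log2 difference of 0.18, and the next 31.5 and 49.8, a difference of 0.66. The third read 28.3, just under the floor, and 39.4, at least 1.37-fold higher, and the fourth was at the floor in both arrays. The 2 brightest probe sets of PTGS1 were somewhat higher in the stretched array, each by less than 2-fold. The third passed the floor only under stretch, so once floored it could only come out higher. All 3 lie in the signal range where probe sets of one gene differ most.

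Promoter sequences of both cyclooxygenase genes and of PTGER4, the EP4 receptor gene, are shown because these paralogous enzymes and this receptor differed in unlike ways on the 2 arrays. They are RefSeq windows on GRCh38.p14 from 250 bases before to 50 bases after an annotated start, 300 bases each, written 5′ to 3′ along the gene. The PTGS2 window is chr1:186680374-186680673 on the minus strand, the PTGS1 window, at the more upstream of its 2 annotated starts, is chr9:122370283-122370582 on the plus strand, and the PTGER4 window is chr5:40679665-40679964 on the plus strand. Capitals mark matches, on either strand, to a TATA box (TATAAA), a GC box (GGGCGG), a cyclic-AMP response element half-site (CGTCA), an AP-1 site (TGANTCA), a C/EBP site (TTNCNNAA) or the NF-kB consensus.
PTGS2: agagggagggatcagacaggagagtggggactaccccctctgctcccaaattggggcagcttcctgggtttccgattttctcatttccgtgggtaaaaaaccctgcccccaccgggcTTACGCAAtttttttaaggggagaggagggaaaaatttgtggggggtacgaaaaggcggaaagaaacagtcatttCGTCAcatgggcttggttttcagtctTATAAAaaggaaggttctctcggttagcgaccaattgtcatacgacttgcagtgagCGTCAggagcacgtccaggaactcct
PTGS1: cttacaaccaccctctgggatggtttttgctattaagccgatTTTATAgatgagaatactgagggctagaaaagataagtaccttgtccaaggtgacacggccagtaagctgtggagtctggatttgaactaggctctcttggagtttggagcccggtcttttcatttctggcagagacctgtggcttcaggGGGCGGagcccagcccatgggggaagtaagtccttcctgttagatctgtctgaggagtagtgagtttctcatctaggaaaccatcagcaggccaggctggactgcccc
PTGER4: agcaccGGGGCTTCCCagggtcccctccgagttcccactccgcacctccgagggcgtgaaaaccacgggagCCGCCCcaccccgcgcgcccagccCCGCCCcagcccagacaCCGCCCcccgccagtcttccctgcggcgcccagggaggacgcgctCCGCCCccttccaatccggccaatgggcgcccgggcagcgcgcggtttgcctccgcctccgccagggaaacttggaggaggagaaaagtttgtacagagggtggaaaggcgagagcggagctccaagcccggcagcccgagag

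In the PTGS2 window the TATA box match lay 32 to 27 bases before the start, a CGTCA match 58 to 54 bases before it, and a C/EBP match, found on both strands, 133 to 126 bases before it. A second CGTCA match lay 25 to 29 bases into the transcript. The PTGS1 window held a GC box match 58 to 53 bases before the start, and its TATAAA match was on the opposite strand 208 to 203 bases before it. PTGER4 had 4 GC box matches and 1 stretch, 244 to 235 bases before the start, that met the NF-kB consensus on both strands. The matches did not overlap one another in these 3 windows, apart from those found on both strands.

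Of the 10 genes, 9 had a promoter window and ALOX5 had none. There were 13 windows in all because PTGS1, PTGES2 and HPGD have more than 1 annotated start. A GC box was found in 10 of the 13 windows, against 45.0% of all 35116 promoter windows of this length. A TATA box was found in 2 of 13 (11.5% of all), a CRE half-site in 4 of 13 (24.6%), a C/EBP match in 3 of 13 (36.8%), an NF-kB match in 4 of 13 (11.3%) and an AP-1 match in none (7.71%). PTGS2 was the only gene of the 9 with a TATA box match on its own strand. GC content was 50.7% in the PTGS2 window and 72.0% in the PTGER4 window, where the median of all windows was 58.7%. A match is a description of letters and not a bound site. Only sequences that met a motif in full were marked, so a window without a match may still hold a near match.

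**Figure D2:**
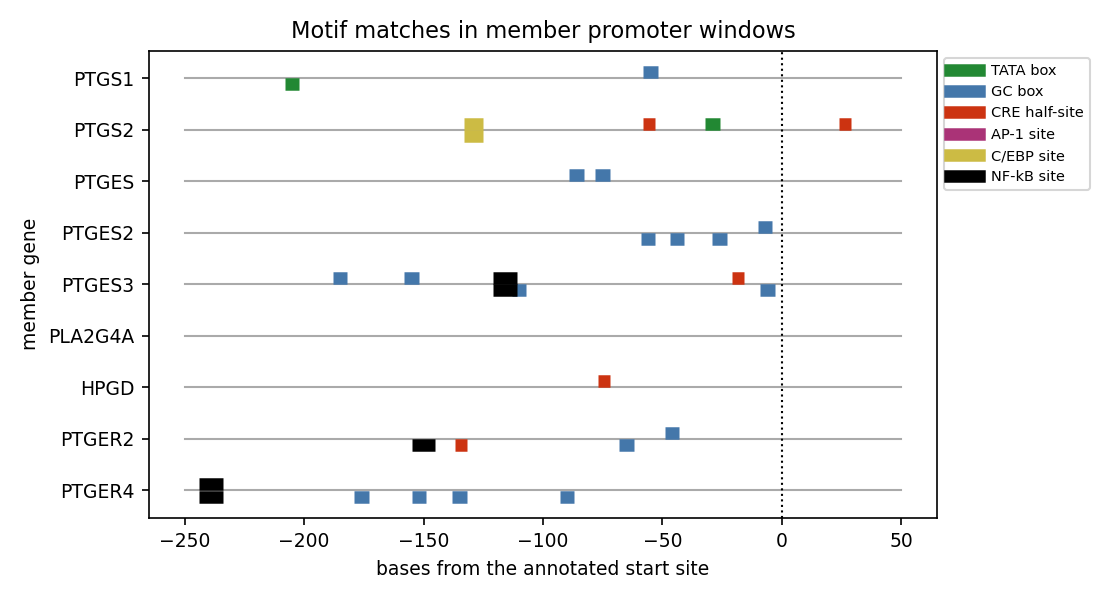
Motif matches in the promoter windows of 9 genes, at the most upstream annotated start of each; the horizontal axis is the distance in bases from that start, and blocks above or below a line are matches on the gene's strand or the opposite strand. PTGS2 has its TATA box match 32 to 27 bases before the start, whereas PTGER4 has 4 GC box matches and no TATA box match.

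The terminal synthases of prostaglandin E2 did not differ 2-fold. PTGES, the inducible microsomal synthase that is often expressed together with PTGS2, read 57.5 in both arrays in its brighter probe set. The other probe set read 41.8 and 40.3, a log2 difference of -0.05. PTGES2, the membrane-associated synthase, went from 632.8 to 955.9, a difference of 0.60 (1.51-fold). PTGES3, the cytosolic synthase that is also the HSP90 co-chaperone p23, read 8300 and 8840, a difference of 0.09. PTGES and PTGES3 change sign with the scaling of the arrays, with ranges over the alternatives of -0.11 to 0.11 and -0.02 to 0.21, so no direction is given for them. PTGES2 was above 0 in every alternative, from 0.49 to 0.71.

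Of 8 measured genes among other prostanoid synthases and reductases, none differed 2-fold, 6 lay above 0 and the median was 0.37. The carbonyl reductases CBR3 and CBR1, of which CBR1 can reduce prostaglandin E2, went from 41.7 to 79.2 (a log2 difference of 0.92) and from 719.4 to 1243 (0.79). AKR1C3, named after its value was seen, makes prostaglandin F2 alpha from prostaglandin H2 and went from 5512 to 3882, a difference of -0.51. HPGDS and PTGDS, the prostaglandin D2 synthases, also named after their values were seen, were at the floor in both arrays.

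HPGD encodes 15-hydroxyprostaglandin dehydrogenase, which inactivates prostaglandin E2. Its brightest probe set read 155.2 in the unstretched and 268.4 in the stretched array, 1.73-fold higher (0.79 on the log2 scale), and the second 97.9 and 163.9, 1.67-fold higher. The other 2 were below the floor without stretch, at 25.2 and 20.2, and read 61.2 and 58.2 under stretch, at least 2.13-fold and at least 2.03-fold higher. The 2 brighter HPGD probe sets were thus higher in the stretched array, each by less than 2-fold. The other 2 passed the floor only under stretch, so once floored they could only come out higher. The mean over all 4, 0.91 on the log2 scale, includes these bounds. The gene stayed under 2-fold both by its brightest probe set and by that mean. All 4 carry the ending _s_at or _x_at, which marks probes that can bind more than 1 transcript.

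In the list of prostanoid transport and breakdown, 5 genes were measured, none differed 2-fold and the median was -0.42. PTGR1, a reductase acting after HPGD that also inactivates leukotriene B4, went from 1504 to 851.8 in its brightest probe set (a log2 difference of -0.82) and was lower in the second (-0.41), while its dimmest, below the floor without stretch, was higher by at least 1.15. ABCC4, an exporter of prostaglandin E2, went from 678.3 to 481.4 (-0.49). PTGR3, named after its values were seen, had 6 measured probe sets, all above 0 and between 0.43 and 1.26. SLCO2A1, the prostaglandin uptake transporter and named in the same way, was at the floor in both arrays.

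Prostaglandin E2 signals through 4 receptors, of which EP2 and EP4, encoded by PTGER2 and PTGER4, raise cyclic AMP. PTGER4 read 686.0 in the unstretched and 1517 in the stretched array in its brighter probe set, 2.21-fold higher (1.14 on the log2 scale), 3.17 times the SD of a single probe set. Its other probe set was at the floor in both arrays, at 14.6 and 15.2, so the difference rests on 1 probe set. Of all measured genes, 793 were as high or higher, which places PTGER4 at the 94.1st percentile.

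PTGER2 read 11.4 without stretch and 32.8 under stretch in its 1 probe set. The first value is under the floor and the second just above it, which gives a bound of at least 1.14-fold higher. PTGER1 and PTGER3 were at the floor in both arrays, PTGER3 in all 10 of its probe sets with no signal above 24.7. PTGER4 was the only one of the 4 EP receptor genes above the floor in both arrays. PTGER1 and PTGER3 were named after their values were seen.

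Of the other prostanoid and nuclear receptor genes, 6 of 10 were measured, 1 was at least 2-fold higher and none lower, with a median of 0.30. PPARG, a nuclear receptor activated by prostaglandin J2 derivatives and oxidised fatty acids, went from 673.5 to 1644, a log2 difference of 1.29 by its 1 probe set, which ends in _s_at. TBXA2R, the thromboxane receptor, and PPARD, named after their values were seen, differed by -0.31 and 0.17 in their brightest probe sets.

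ALOX5 encodes 5-lipoxygenase, the first enzyme of leukotriene synthesis and best known from leukocytes. Its brightest probe set read 894.5 in the unstretched and 398.9 in the stretched array, 2.24-fold lower under stretch (-1.17 on the log2 scale). The next read 224.7 and 95.8, 2.35-fold lower, and the third 140.2 and 51.9, 2.70-fold lower. The 3 measured ALOX5 probe sets agreed within 0.27 on the log2 scale, less than the SD of a single probe set, and the fourth was at the floor in both arrays. The brightest difference was 3.23 times that SD, and 753 measured genes were as low or lower, which places ALOX5 at the 5.59th percentile. All 4 end in _s_at.

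ALOX5 was the only one of 6 lipoxygenase genes above the floor. ALOX12, ALOX12B, ALOX15, ALOX15B and ALOXE3 were at the floor in both arrays in all 7 of their probe sets, with no signal above 15.4. ALOX5AP, the membrane protein that presents arachidonate to 5-lipoxygenase, was also at the floor, at 15.8 and 12.8, as was LTC4S, the leukotriene C4 synthase. LTA4H, which makes leukotriene B4 and also acts as a peptidase, was bright at 3875 and 3234, a log2 difference of -0.26. The genes here other than ALOX5 were named after their values were seen.

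Of lipoxygenase and leukotriene synthesis, 9 genes other than ALOX5 were measured, and none differed 2-fold in its brightest probe set. Their median was -0.08, and 8 lay below 0. MGST1, GPX4, ABCC1, MGST3 and GGT5 (a bound), named after their values were seen, lay between -0.11 and -0.01. They were no further from 0 than the spike-in median of -0.11, so no direction is given for them. In dimmer probe sets MGST1 was at 1.26, COTL1 at 1.29 and MGST3 at -1.10. COTL1, an actin-binding protein that also binds 5-lipoxygenase, went from 3897 to 6107 (0.65), and GGT1, a gamma-glutamyl transferase that converts leukotriene C4 to D4, exceeded the floor without stretch alone and was at least 1.29-fold lower. Of the leukotriene and oxo-eicosanoid receptors, 2 of 7 named genes were measured. OXER1, the receptor for 5-oxo-eicosatetraenoic acid, went from 261.1 to 162.4 (-0.68). LTB4R, the leukotriene B4 receptor, read 60.1 and 57.0 (-0.08) in its brightest probe set. Another of its probe sets read 33.0 and 47.8 (0.53), so no direction is given for LTB4R.

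Because ALOX5 is best known from leukocytes, leukocyte markers were read beside it. Of 9 named markers 7 were measured and none differed 2-fold. CD3E, CD79A and LCP2 passed the floor only under stretch, so once floored they could only come out higher. The median of 0.08 is the bound of CD3E. CD14 read 78.6 without stretch (a log2 difference of -0.51), ITGB2 41.9 (-0.43) and ITGAM 35.3 (-0.02). PTPRC was at the floor in both arrays. LYZ, which airway gland cells also express, went from 1220 to 1462 (0.26). It made up most of the summed marker signal of 1490 and 1733. The 6 markers listed for airway gland and surface secretory cells, a list without LYZ, were lower like ALOX5 and PTGS2 where measured. All 5 measured were below 0, 3 of them (CFTR, MUC1 and WFDC2) at least 2-fold lower, with a median of -1.09. LTF was at the floor in both arrays, and the summed signal of these listed markers was 16133 against 7196. Their part in the ALOX5 and PTGS2 differences was not tested. Fewer cells of a type and less RNA per cell cannot be told apart in such bulk samples.

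**Figure D3:**
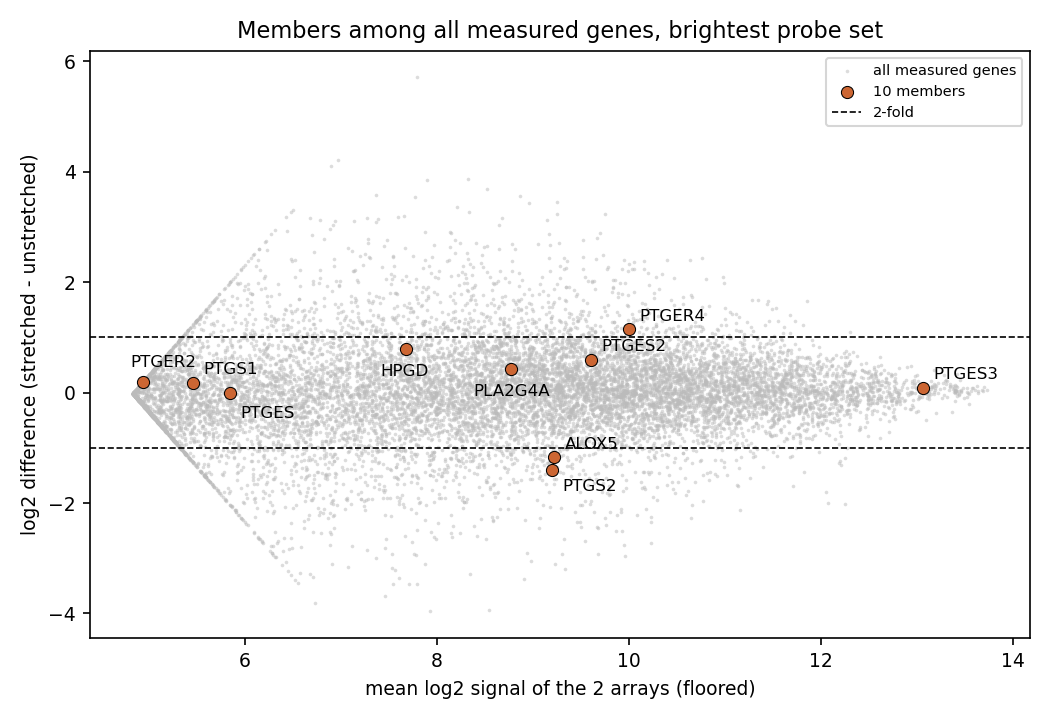
Log2 difference (stretched minus unstretched) against mean log2 signal of the 13453 measured genes in their brightest probe set, with the 10 genes named and dashed lines at 2-fold. PTGER4 lies above the upper line, PTGS2 and ALOX5 lie below the lower one, and the other 7 lie between them.

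The cytochrome P450 list held the largest difference among the other pathway genes, in CYP4F3. CYP4F3, which inactivates leukotriene B4 by omega-hydroxylation, went from 239.6 in the unstretched to 52.8 in the stretched array, 4.54-fold lower (-2.18 on the log2 scale) by its 1 probe set. CYP4F11, a relative, read 59.5 and 22.4 and was at least 2.10-fold lower. CYP1B1, better known for metabolising steroids and polycyclic hydrocarbons, was higher in all 3 measured probe sets, from 738.7 to 1681 in the brightest (1.19) and by 1.48 and 1.09 in the others, all 3 ending in _s_at. The 4 other measured genes of the list (CYP2J2, CYP4A11, CYP4F12 and EPHX1, listed to complete the count and after their values were seen) differed by less than 2-fold.

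Across the 7 lists of other eicosanoid genes, 79 of 86 were named and 49 measured. Of these, 2 (4.08%) were at least 2-fold higher, 2 (4.08%) at least 2-fold lower and 45 differed by less, against the 7.78% and 7.49% of all measured genes. Their median was -0.04, with 21 above and 28 below 0. The 4 were PPARG, CYP1B1, CYP4F3 and CYP4F11. With the arrays centred on the spike-ins, 4 genes of these lists (8.16%) were at least 2-fold higher and 1 (2.04%) lower. Over all measured genes the shares under that scaling were 9.79% and 6.17%.

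**Figure D4:**
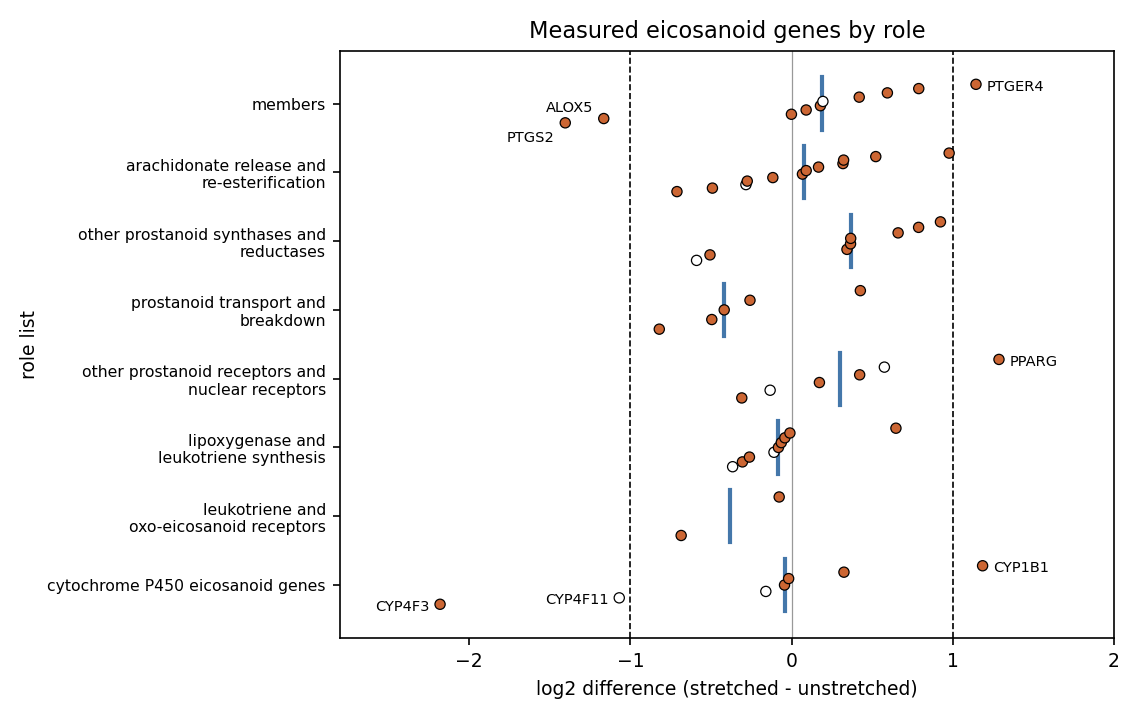
Log2 differences (stretched minus unstretched) of the measured genes by role, 1 point per gene in its brightest probe set; open points are bounds with 1 array at the floor, blue bars are list medians and dashed lines mark 2-fold. PTGS2, ALOX5, CYP4F3 and CYP4F11 lie below the lower line and PTGER4, PPARG and CYP1B1 above the upper one.

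The calls of the 10 genes were set against other ways of processing the arrays. PTGS2 was at least 2-fold lower in all 9 alternatives, between -1.51 and -1.22. ALOX5 was at least 2-fold lower in 7 of the 8 that gave it a value and was at -0.96 when all its probe sets, the one at the floor included, were averaged. PTGER4 was at least 2-fold higher in 8 of 9 and was at 0.56 under that same averaging, in which its dark probe set counts as no difference. A floor at the 75th percentile, 231.1 in the unstretched array, lay above the unstretched HPGD signal of 155.2. It left HPGD with a bound of at least 0.22. PTGER2, with no floor, was at 1.52 from a signal of 11.4. Centring the arrays on their 75th percentile moved the median of all measured genes to -0.10, and centring them on the spike-ins moved it to 0.12; of the genes differing 2-fold, 50.9% were higher as deposited, 61.3% under the spike-in scaling, 41.2% with 75th-percentile centring and 44.5% with the loess trend removed.

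**Figure D5:**
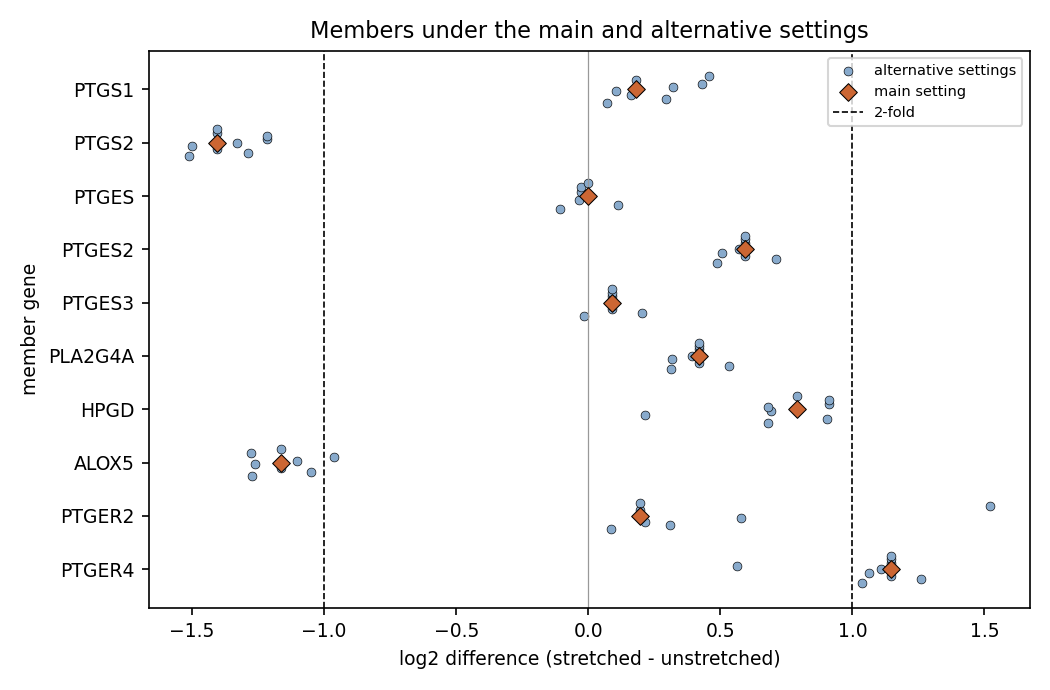
Log2 difference (stretched minus unstretched) of each of the 10 genes under the main setting (diamonds) and each alternative that gave a value (circles), with dashed lines at 2-fold. PTGS2 stays below the lower line throughout, between -1.51 and -1.22, while PTGES lies on both sides of 0.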

How the data were processed

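Total RNA (6 µg per culture) was made into biotin-labelled cRNA and hybridised to Affymetrix arrays, per the labels' protocols. The deposited values are linear signal intensities, 1 for every probe set on either array; how they were summarised and scaled is not given in the sources used here. They were used as deposited, since the array medians differed by -0.02 on the log2 scale. Names come from the platform annotation, with symbols updated by gene ID to RefSeq's GRCh38.p14 table: 41037 had a current symbol, 54 an older one, 1801 several genes and 11721 none, and only those naming 1 gene were used. A gene took its brightest probe set (mean of both log2 signals). Values below the 50th percentile were set to it, and a gene counted as different at 2-fold. With 1 array per condition no test was run.

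The 10 genes, the role lists and the marker lists were chosen with earlier results of these data known. The text names all 10 genes and, per list, the genes at least 2-fold different (at most 6) or otherwise the 2 largest measured differences; others are marked. With 2 arrays no likeness between gene patterns can be measured, so none is named for one. Alternatives were the floor (none, 75th percentile), 3 scalings, an offset of 32, averaged probe sets and leaving out _x_at and _s_at probe sets. The script was tested on simulated data. Python 3.11.15, pandas 2.3.3 and statsmodels 0.14.6 (lowess, span 0.3) were used.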

Additional observations from a re-analysis of the deposited data

How the results depend on the processing

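No paired analysis was possible because each condition has 1 array, and no replicate could be left out. Of 84 values of the 10 genes under 9 alternatives, 80 moved by less than the probe set SD of 0.36 and 4 by more. Many of the 80 had little or no room to move. Centring on the 75th percentile or on the spike-ins shifts every gene alike by 0.11, less than that SD. Several other alternatives leave a bright gene with 1 probe set unchanged. The count is therefore no measure of how robust the values are. HPGD moved to a bound of at least 0.22 (floor at the 75th percentile). PTGER2 moved to 1.52 (no floor) and 0.58 (offset of 32), and PTGER4 to 0.56 (all probe sets averaged). Averaging measured probe sets only was chosen after seeing the data. The count of the 10 genes at least 2-fold higher was 0 with all probe sets averaged and 2 with no floor, and the count lower was 1 with all averaged and 1 without _x_at and _s_at probe sets, which leave ALOX5 without a value. Over all 19775 genes with no floor, 2304 (11.65%) were higher and 2374 (12.01%) lower. With the 75th percentile floor fewer genes were measured, 8590, of which 549 (6.39%) were higher and 394 (4.59%) lower. With all probe sets averaged, 653 of 13473 (4.85%) were lower. Of the 79 other pathway genes with no floor, 6 (7.59%) were higher and 10 (12.66%) lower. The share lower was thus close to that of all genes, and the share higher was smaller. Under spike-in scaling 4 of 49 were higher and 1 lower. The count higher was 1 of 49 with all probe sets averaged and 1 of 36 without _x_at and _s_at. The count lower was 0 of 30 with the 75th percentile floor and 1 of 79 with the offset. The cause was not tested. Signals near the floor (PTGS1, PTGES, PTGER2) limit what the arrays can show.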
